A study of Mus musculus with 11 samples.

Results

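The genes of the proteasome were taken as every symbol that begins with Psma, Psmb, Psmc, Psmd, Psme, Psmf or Psmg followed by a digit, with pseudogene names left out. The rule found 50 of 29224 genes in a bulk RNA-seq table and 50 of 31053 genes in a single-cell matrix, and it used no measured value. Of these, 31 encode constitutive subunits of the 26S proteasome and 3 encode the inducible catalytic subunits of the immunoproteasome, which were kept apart. The others are 5 activators, 1 inhibitor, 7 assembly factors, 2 tissue-specific subunits and Psmc3ip, which fits the symbol rule but encodes a recombination factor and no subunit.

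The proteasome is the protease that degrades proteins tagged with ubiquitin. Its core particle is a barrel of alpha rings, which control entry, around beta rings, which hold the catalytic sites, and its regulatory particle has ATPase subunits that unfold substrates and non-ATPase subunits that bind and deubiquitinate them. Under interferon, and without it in many lymphoid cells, the catalytic subunits made from Psmb5, Psmb6 and Psmb7 are replaced by those of Psmb8, Psmb9 and Psmb10, in that order, which alters the peptides made for MHC class I. Dividing cells need the proteasome to degrade cyclins and other regulators of mitosis.

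The study concerns Sostdc1, which encodes a secreted protein that blocks Wnt and BMP signals, in follicular T cells of C57BL/6 mice, and all samples came from draining lymph nodes. Follicular regulatory T (Tfr) cells, a kind of Foxp3+ regulatory T (Treg) cell found in B cell follicles, were sorted as GITR-high cells with CXCR5 and PD1. The bulk comparison sets 1 Tfr library labelled wild type (WT) against 1 labelled Sostdc1 knockout, homozygous (KO), and the single-cell library held CD4+ CD44+ T cells of heterozygous Sostdc1-EGFP reporter mice. The labels give neither the age nor the number of mice, nor whether cells of several mice were pooled, nor the deleted part of Sostdc1. With 1 library per group no difference has a replicate check and no test was made. Ratios carry exact 95% intervals that cover counting error only. Bulk reads carry no molecular identifiers and are not independent molecules.

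The bulk libraries held 27777625 counts (KO) and 18076300 counts (WT). Levels are in CPM, that is, each count is divided by the library total and scaled up. They are not corrected for gene length, so levels of different genes are not ranked in the bulk data. The label check failed for the targeted gene: Sostdc1 had 458 counts in the KO-labelled library and 4 in the WT-labelled library. Sex-linked RNA differed as well, with Xist at 1232 against 2.16 CPM and Ddx3y at 0.216 against 197 CPM. Label and sex-linked RNA thus part the same libraries, so sex and label cannot be told apart in any bulk ratio. Directions below therefore compare the KO-labelled library with the WT-labelled library and not the genotypes. Foxp3 stood at 1164 and 1471 CPM and Cd3e at 295 and 200.1 CPM. Among genes of the sort, Cxcr5 stood at 62.8 and 55.7 CPM and Pdcd1, which encodes PD1, at 229 and 164 CPM. Tnfrsf18, which encodes GITR, stood at 276 and 165 CPM, a ratio of 1.67 (1.60 to 1.74). RNA of these markers was thus found in both libraries, at levels that differed.

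Promoter sequences are shown for catalytic genes that hold a searched motif. The reason is that the constitutive and inducible members of each catalytic pair parted in bulk and between cycling and resting T cells. The RefSeq table of build GRCm38.p6 held a promoter for 42 of the 50 genes. The 250 bases before the gene start are printed 5′ to 3′ on the gene's strand, for Psmb5 at chr14:54617996-54618245 (minus strand), Psmb6 at chr11:70525107-70525356 (plus strand) and Psmb9 at chr17:34187331-34187580 (minus strand). Capitals mark a match to the antioxidant response element TGACNNNGC in Psmb5 and Psmb6, and to CCAAT, read on the opposite strand, in Psmb9.
Psmb5: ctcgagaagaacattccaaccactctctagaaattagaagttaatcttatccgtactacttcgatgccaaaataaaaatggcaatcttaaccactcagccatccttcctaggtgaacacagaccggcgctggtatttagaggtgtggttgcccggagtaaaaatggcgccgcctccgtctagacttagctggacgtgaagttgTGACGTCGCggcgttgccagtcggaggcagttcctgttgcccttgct
Psmb6: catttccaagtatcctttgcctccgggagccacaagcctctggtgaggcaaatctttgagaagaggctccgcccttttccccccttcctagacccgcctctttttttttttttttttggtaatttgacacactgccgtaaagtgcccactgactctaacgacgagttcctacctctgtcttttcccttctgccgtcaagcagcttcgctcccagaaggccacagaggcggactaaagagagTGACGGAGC
Psmb9: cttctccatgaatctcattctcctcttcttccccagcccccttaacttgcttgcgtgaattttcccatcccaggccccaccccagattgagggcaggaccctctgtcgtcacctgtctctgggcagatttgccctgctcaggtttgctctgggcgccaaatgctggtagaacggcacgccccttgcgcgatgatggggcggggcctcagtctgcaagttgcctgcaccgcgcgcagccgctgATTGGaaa

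The match began 47 bases before the start in Psmb5, 9 bases before it in Psmb6 and 8 bases before it in Psmb9. Psmb9 and Tap1, which encodes a subunit of the transporter that carries proteasome-made peptides to MHC class I, lie head to head with 225 bases between their starts. Their promoter windows share 275 of 300 bases. Over both strands, TGACNNNGC was found in 4 of 25 constitutive 26S promoters (16%), against 11.5% of 27025 genes. CCAAT was found in 10 of 25 (40%), against 37.5%. By role it was found in 5 of 7 alpha, 1 of 4 beta, 2 of 5 ATPase and 2 of 9 non-ATPase promoters. The interferon-stimulated response element was found in 2 of 25 (8%), against 3.46%, and in none of the 3 immunoproteasome promoters. The windows of Psmb8 and Psmb10 held no match to these letters, and Psmb7 was not searched.

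In bulk, 47 of the 50 genes had at least 5 CPM in either library, the exceptions being Psma8, Psmb11 and Psmc3ip. The member farthest from equal levels was an inducible catalytic subunit. Psmb10 (ENSMUSG00000031897), the inducible partner of Psmb7, had 35.3 CPM in the KO-labelled library and 94.5 CPM in the WT-labelled library, 2.68-fold lower (2.47 to 2.90) in the former. Psmb9 (ENSMUSG00000096727), the partner of Psmb6, had 108 against 213 CPM, 1.97-fold lower (1.88 to 2.07). Psmb8 (ENSMUSG00000024338), the partner of Psmb5, had 101 against 125 CPM, 1.24-fold lower (1.17 to 1.31). All 3 inducible genes were lower in the KO-labelled library, and 2 of 3 passed a size of 1.5-fold on the scale of log2(CPM + 1), which 19.7% of the 10194 genes with at least 5 CPM in either library passed downwards.

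Their constitutive counterparts stood the other way. Psmb5 had 53.5 CPM in the KO-labelled library and 37.2 CPM in the WT-labelled library, a ratio of 1.44 (1.31 to 1.58). Psmb6 had 109 against 90.5 CPM, a ratio of 1.2 (1.13 to 1.28), and Psmb7 had 85.3 against 55.3 CPM, a ratio of 1.54 (1.43 to 1.66). The ratio of the inducible to the constitutive gene, in which gene length and library total cancel when libraries are compared, was higher in the WT-labelled library for every pair. It was 1.78-fold higher (1.6 to 1.98) for Psmb8 over Psmb5, 2.37-fold (2.19 to 2.55) for Psmb9 over Psmb6 and 4.13-fold (3.71 to 4.60) for Psmb10 over Psmb7. Summed over the catalytic genes it was 2.39-fold higher (2.27 to 2.52).

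**Figure D1:**
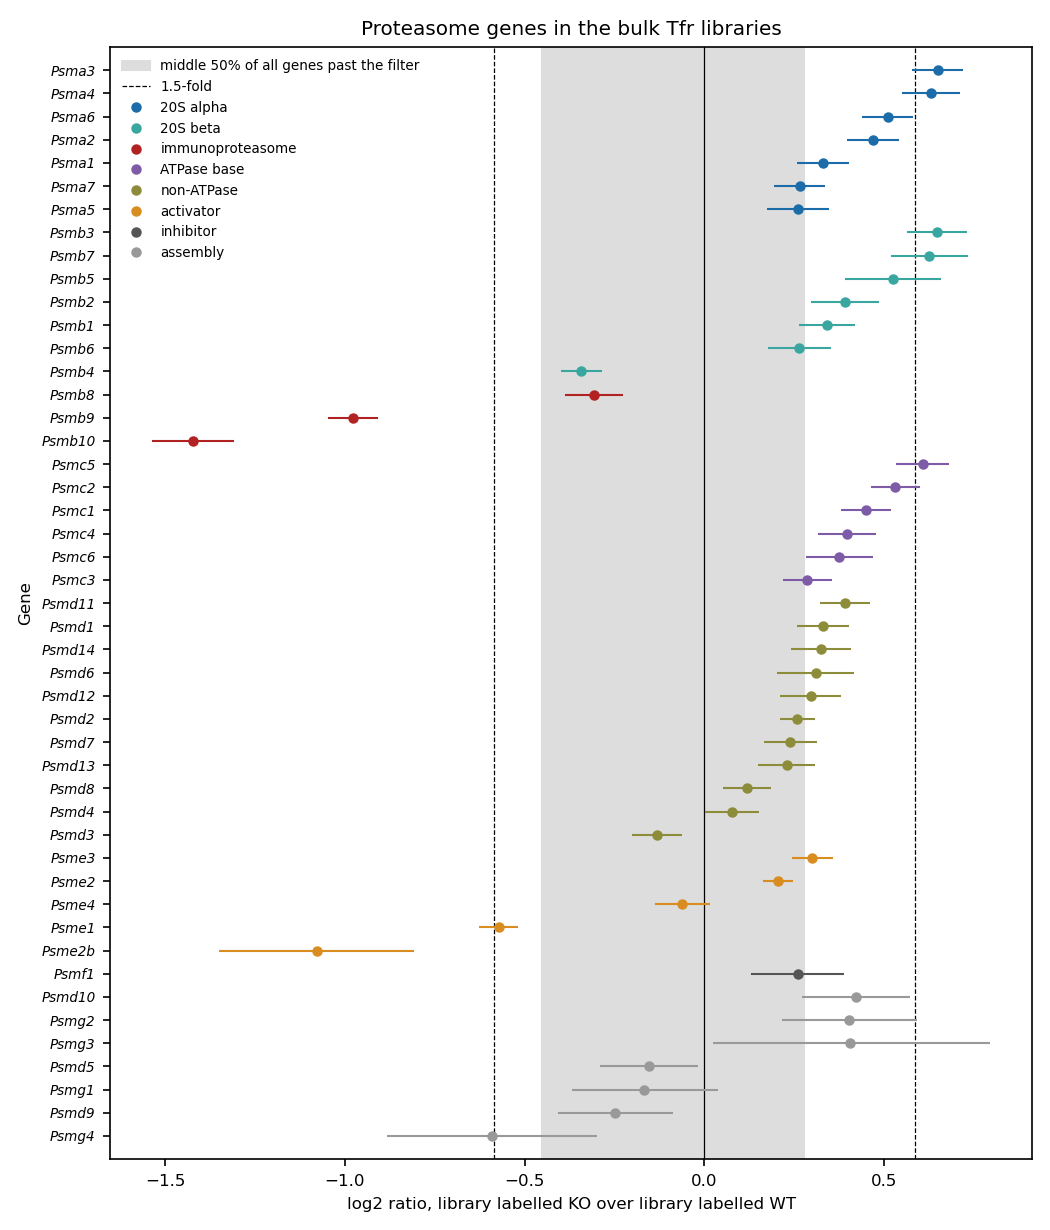
Log2 ratio of the KO-labelled library over the WT-labelled library for the 47 proteasome genes past the filter, coloured by role, with exact 95% counting intervals as lines; the grey band is the middle 50% of all 10194 genes on log2(CPM + 1), and dashed lines mark 1.5-fold. Alpha, beta and ATPase subunits lie to the right of 0 except Psmb4, and Psmb8, Psmb9 and Psmb10 lie to the left.

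Across the constitutive 26S subunits the KO-labelled library was higher by a small factor in nearly every gene. Summed, they stood at 4738 CPM in the KO-labelled library and 3799 CPM in the WT-labelled library, a ratio of 1.25 (1.24 to 1.26). Of 31 genes, 29 had a log2 ratio above 0, as did 46.6% of all genes past the filter. The exceptions were Psmb4, a structural beta subunit, at 192 against 243 CPM, a ratio of 0.789 (0.758 to 0.821), and Psmd3, a lid subunit, at 147 against 161 CPM, a ratio of 0.912 (0.870 to 0.957). The median log2 ratio of the 31 genes was 0.33, beside −0.04 over all genes, whose quartiles were −0.45 and 0.28.

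At least 1.5-fold higher were 5 of the 31 genes and none was as far lower, against 9.47% and 19.7% of all genes. The alpha subunits Psma3 and Psma4 were at 200.2 against 128 CPM, a ratio of 1.57 (1.49 to 1.65), and at 153 against 98.6 CPM, a ratio of 1.55 (1.46 to 1.64). The beta subunit Psmb3 was at 144 against 91.9 CPM, a ratio of 1.57 (1.48 to 1.66). Psmb7 is given above, and the ATPase Psmc5 was at 179 against 118 CPM, a ratio of 1.52 (1.45 to 1.60). Just short of this size lay the ATPase Psmc2 at 1.45 (1.38 to 1.52) and Psmb5 at 1.44, so the members past the size do not stand apart from those next to them.

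By role, the 7 alpha subunits summed to a ratio of 1.37 (1.34 to 1.39) and the 6 ATPases to 1.36 (1.33 to 1.39). The 7 beta subunits summed to 1.17 (1.14 to 1.19) and the 11 non-ATPase subunits to 1.16 (1.14 to 1.18). None of the non-ATPase subunits was past 1.5-fold, and their log2 ratios ran from −0.13 (Psmd3) to 0.39 (Psmd11).

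The activators had no common direction. Psme1 and Psme2 encode the alpha and beta chains of PA28, the interferon-inducible cap that opens the core particle. Psme1 had 207 CPM in the KO-labelled library and 308 CPM in the WT-labelled library, 1.49-fold lower (1.43 to 1.54), while Psme2 had 479 against 415 CPM, a ratio of 1.15 (1.12 to 1.19). The chains of this 1 complex thus stood in opposite directions, as the plot of log2 ratios by gene shows. Psme1 overlaps Emc9 in the RefSeq annotation, and whether reads of these genes were told apart is not known here. Psme2b, a near copy of Psme2, had 7.13 against 15 CPM, 2.11-fold lower (1.75 to 2.55), and was the only activator past 1.5-fold. Reads of Psme2 and Psme2b may not be told apart, and Psme2b overlaps 9930111J21Rik1, so its value is uncertain. Psme3, the nuclear activator, had a ratio of 1.23 (1.18 to 1.28) and Psme4, which encodes PA200, 0.958 (0.909 to 1.01).

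Of the 7 assembly factors 3 had a log2 ratio above 0 and 4 below, and none was past 1.5-fold on log2(CPM + 1). Their ratios ran from 0.664 (0.542 to 0.813) for Psmg4 to 1.34 (1.21 to 1.49) for Psmd10. The inhibitor Psmf1 was at 50.2 against 41.9 CPM, a ratio of 1.2 (1.09 to 1.31). The thymic subunit Psmb11 had 3 and 4 counts and the testis subunit Psma8 had 5 and 4, so both were at the detection limit. Psmc3ip had 4.07 and 4.59 CPM and was under the filter.

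The scaling moved these counts. With trimmed mean of M values (TMM) scaling the median log2 ratio of all genes moved from −0.04 to 0.11, and genes higher in the KO-labelled library went from 965 of the genes past 1.5-fold, beside 2006 lower, to 1566, beside 1504 lower. Under TMM, 10 of 31 constitutive subunits were at least 1.5-fold higher and none lower, against 15.4% and 14.8% of 10176 genes. Of the 31 subunits, 30 had a log2 ratio above 0, since Psmd3 turned to 1.01, and the median of the 31 was 0.48. The 3 inducible genes stayed below 1 under TMM, at 0.899 for Psmb8, 0.565 for Psmb9 and 0.415 for Psmb10, as did Psmb4 at 0.877.

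Other genes of the pathway were mixed. Of 34 listed genes 30 were in the table and all 30 passed the filter, with 5 at least 1.5-fold higher and 2 as far lower in the KO-labelled library, against 9.47% and 19.7% of all genes. Among the higher ones were Fbxo7, an F-box protein that binds the inhibitor Psmf1, at 1.80 (1.59 to 2.05), Rps27a, which encodes ubiquitin fused to a ribosomal protein, at 1.79 (1.73 to 1.85), and Pomp, the maturation chaperone of the core particle, at 1.63 (1.54 to 1.71). The lower genes included the ubiquitin receptor Adrm1 at 0.591 (0.557 to 0.627). Nfe2l1, the factor that induces proteasome genes when degradation is impaired, stood at 194 against 190 CPM, a ratio of 1.02 (0.978 to 1.07).

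In the MHC class I list, 4 of 8 genes were at least 1.5-fold lower in the KO-labelled library and none higher, against the same shares. Tap1, the neighbour of Psmb9, had a ratio of 0.504 (0.493 to 0.514), close to the 0.508 of Psmb9 itself, and Tap2 and Tapbp had 0.439 and 0.516. B2m, the light chain of MHC class I, stood at 1.30 (1.29 to 1.32). Ifng, which encodes the interferon that induces the immunoproteasome and was chosen after its values were seen, had 486 against 70.0 CPM, 6.93-fold higher (6.54 to 7.35) in the library with less Psmb9 and Psmb10 RNA.

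Summed markers of some other cells differed between these libraries too. The 5 measured myeloid markers summed to 49.6 CPM in the KO-labelled library and 19.2 CPM in the WT-labelled library. The 6 markers of NK and CD8 T cells summed to 101 and 30.3 CPM, most of it Nkg7 at 80.5 and 18.4 CPM. In that list only Cd8a stood the other way, at 0.360 and 0.774 CPM, and Klrb1c had 0.468 and 0.443 CPM, both under the filter. The 6 B cell markers summed to 21.4 and 22.0 CPM, and no marker was at 0 in either library. Their part in the proteasome ratios was not tested. The 10 genes used below to gate cycling cells summed to 838 against 807 CPM, a ratio of 1.04 (1.02 to 1.06), and none of them was past 1.5-fold. Gapdh and Actb, chosen after their values were seen, were at 1.61 (1.55 to 1.66) and 1.39 (1.38 to 1.40), so these abundant genes differed by as much as the constitutive subunits. In sorted bulk samples fewer cells of a type and less RNA per cell cannot be told apart. In the RefSeq annotation other genes overlap Psma3, Psma4, Psma6, Psmb7, Psmc5, Psmd1, Psmd13, Psme1, Psme4, Psmf1, Psmd10 and Psmc3ip, and the strand setting of the counting is not known here.

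The single-cell library held 15002 barcodes and 106127466 unique molecular identifiers (UMIs), of which 13190 cells passed filters of at least 500 genes and under 10% mitochondrial UMIs. Cells were gated by UMIs of marker genes. Cycling T cells, with at least 5 UMIs over 10 mitotic genes, were 1067 cells. Among the other T cells, 2055 with Foxp3 formed the Treg gate, 83 with Foxp3, Cxcr5 and Pdcd1 the Tfr gate, 734 with Cxcr5 and Pdcd1 but no Foxp3 the follicular helper (Tfh) gate, and 2226 with markers of resting cells, Ccr7 among them, but none of those 3 genes the resting gate. The B gate held 478 cells with B cell genes and no Cd3 UMI, and 651 cells with both were left out of all gates. A gate needs its UMIs to be caught, so deeper cells enter more easily: median UMIs per cell were 18016 in the cycling gate, 8112 in Tfr, 7084 in Tfh, 6245 in resting, 5707 in Treg and 4670 in B cells.

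Genes outside the gate rules fit the names, except Tcf7. This gene, listed for resting cells, had 362 CPM in resting and 487 CPM in Tfh cells. Cd74, listed for B cells, had 11379 CPM in B and 90.5 CPM in resting cells. Ikzf2, a Treg transcription factor, had 875 CPM in Treg and 74.6 CPM in resting cells, Il21, the Tfh cytokine, 78.1 CPM in Tfh and 2.11 CPM in resting cells, and Klf2, a factor of resting cells, 626 CPM in resting and 141 CPM in Tfh cells. Stmn1, a tubulin regulator of dividing cells, had 1102 CPM in cycling cells and 30.5 CPM in resting ones. The Tfr gate was mixed in this respect, with Il21 at 29.9 CPM and Bcl6 at 27.3 CPM, between Treg (2.25 and 7.56 CPM) and Tfh (78.1 and 75.2 CPM). The B gate held dividing cells, with Mki67 at 114 CPM against 6.00 CPM in resting T cells. UMIs were summed per gate and scaled to CPM; they count 3′ ends, so levels do not scale with gene length.

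Summed RNA of the 31 constitutive subunits was highest in cycling T cells and lowest in resting ones. It was 3698 CPM (3668 to 3729) in resting cells, 4444 (4368 to 4521) in B cells, 5005 (4968 to 5043) in Treg, 5274 (5215 to 5333) in Tfh, 5466 (5302 to 5634) in Tfr and 7687 (7650 to 7724) in cycling T cells. Neighbours in this order differed beyond counting error, except that the Tfh and Tfr intervals overlapped. Of the 31 genes, 30 had their highest level in cycling T cells, the exception being the ubiquitin receptor Psmd4 (199 CPM in Tfh, 189 in cycling cells). In resting cells 30 had their lowest level, the exception being Psma2 (255 CPM in B, 261 in resting cells).

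The 3 immunoproteasome genes followed another order. Their sum was 1170 CPM (1153 to 1187) in resting cells, 1259 (1230 to 1288) in Tfh, 1369 (1326 to 1412) in B, 1416 (1333 to 1502) in Tfr, 1556 (1534 to 1577) in Treg and 1559 (1542 to 1575) in cycling T cells. The intervals of B and Tfr overlapped, as did those of Treg and cycling T cells. The lowest and the highest gate thus differed less for this sum than for the constitutive one. Treg and cycling T cells did not overlap among cells of 6000 to 8000 UMIs. There the sum was 1821 CPM (1695 to 1954) in cycling T cells, 1607 (1562 to 1653) in Treg and 1120 (1091 to 1148) in resting cells. In cells of at least 15000 UMIs it was 1505 CPM (1487 to 1523) in cycling T cells and 1401 (1328 to 1476) in Treg. The part of depth in this sum was not tested.

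**Figure D2:**
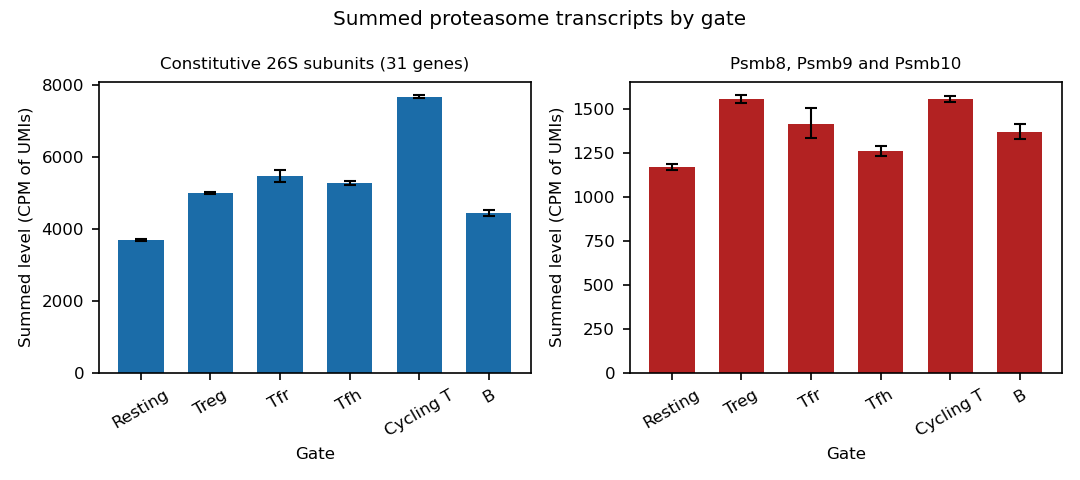
Summed level in CPM of the 31 constitutive 26S genes and of the 3 immunoproteasome genes in each gate, with exact Poisson 95% intervals. Constitutive genes run from 3698 CPM in resting to 7687 CPM in cycling T cells, immunoproteasome genes from 1170 to 1559 CPM.

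Against resting cells, cycling T cells had more RNA of every constitutive subunit, by 2.08-fold in sum (2.06 to 2.1), and 66.8% of all genes had a log2 ratio above 0. At least 1.5-fold higher were 29 of 31 genes, where 38.2% of the 5546 genes with at least 20 CPM in either gate were, and none was as far lower, where 13.3% were. At least 2-fold higher were 26, against 21.7% of all genes. The median log2 ratio was 1.16, beside 0.36 over all genes. The genes short of 1.5-fold were Psmb1, a structural beta subunit with 493 against 392 CPM, a ratio of 1.26 (1.22 to 1.30), and Psmd4, with 189 against 148 CPM, a ratio of 1.28 (1.21 to 1.35). Alpha subunits summed to 2.08-fold, beta subunits to 1.99-fold, ATPases to 2.22-fold and non-ATPase subunits to 2.11-fold.

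The highest subunit in this comparison was the catalytic Psmb7, with 163 CPM in cycling and 54.0 CPM in resting cells, a ratio of 3.01 (2.79 to 3.26). Its inducible partner Psmb10 had 188 against 194 CPM, a ratio of 0.972 (0.927 to 1.02). The lid subunit Psmd13 stood at 2.90 (2.71 to 3.11), the beta subunit Psmb2 at 2.84 (2.69 to 3.0) and Psmd1, the scaffold of the base, at 2.76 (2.50 to 3.05). Psmb5 was at 347 against 143 CPM, a ratio of 2.43 (2.31 to 2.55), and Psmb6 at 264 against 129 CPM, a ratio of 2.04 (1.94 to 2.15). Psmb8 and Psmb9 both stood at 1.40, so the 3 inducible genes lay below each of their constitutive partners and none passed 1.5-fold.

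Psmc3ip, the recombination factor that is no subunit, had 32.5 CPM in cycling and 5.54 CPM in resting cells, 5.87-fold higher (4.68 to 7.45). Among the other members, Psme1 did not differ beyond counting error, at 448 against 449 CPM, a ratio of 0.996 (0.966 to 1.03), while Psme2 was at 401 against 270 CPM, a ratio of 1.48 (1.43 to 1.54). Psme2b was 2.23-fold lower (1.89 to 2.64) in cycling cells, at 10.7 against 24.0 CPM. Of the 7 assembly factors, Psmg1, Psmg2 and Psmg3 were past 1.5-fold upwards, near the share of 38.2% of all genes. Psmg4 had 0.952 (0.882 to 1.03) and Psmd10, the chaperone gankyrin, 1.17 (1.05 to 1.29).

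Of 23 other pathway genes past the filter in this comparison, 10 were at least 1.5-fold higher in cycling T cells and 2 lower, near the shares of 38.2% and 13.3% of all genes. The higher ones included the proteasome-bound deubiquitinases Uchl5 at 2.92 (2.65 to 3.23) and Usp14 at 2.04 (1.83 to 2.27), the proteasome-bound thioredoxin Txnl1 at 2.74 (2.56 to 2.94), and Pomp at 2.52 (2.42 to 2.63). The lower ones included the antioxidant response factor Nfe2l2 at 0.435 (0.384 to 0.492). In the MHC class I list 3 of 8 were lower, among them Irf1 at 0.527 and Nlrc5 at 0.554, and none was higher.

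**Figure D3:**
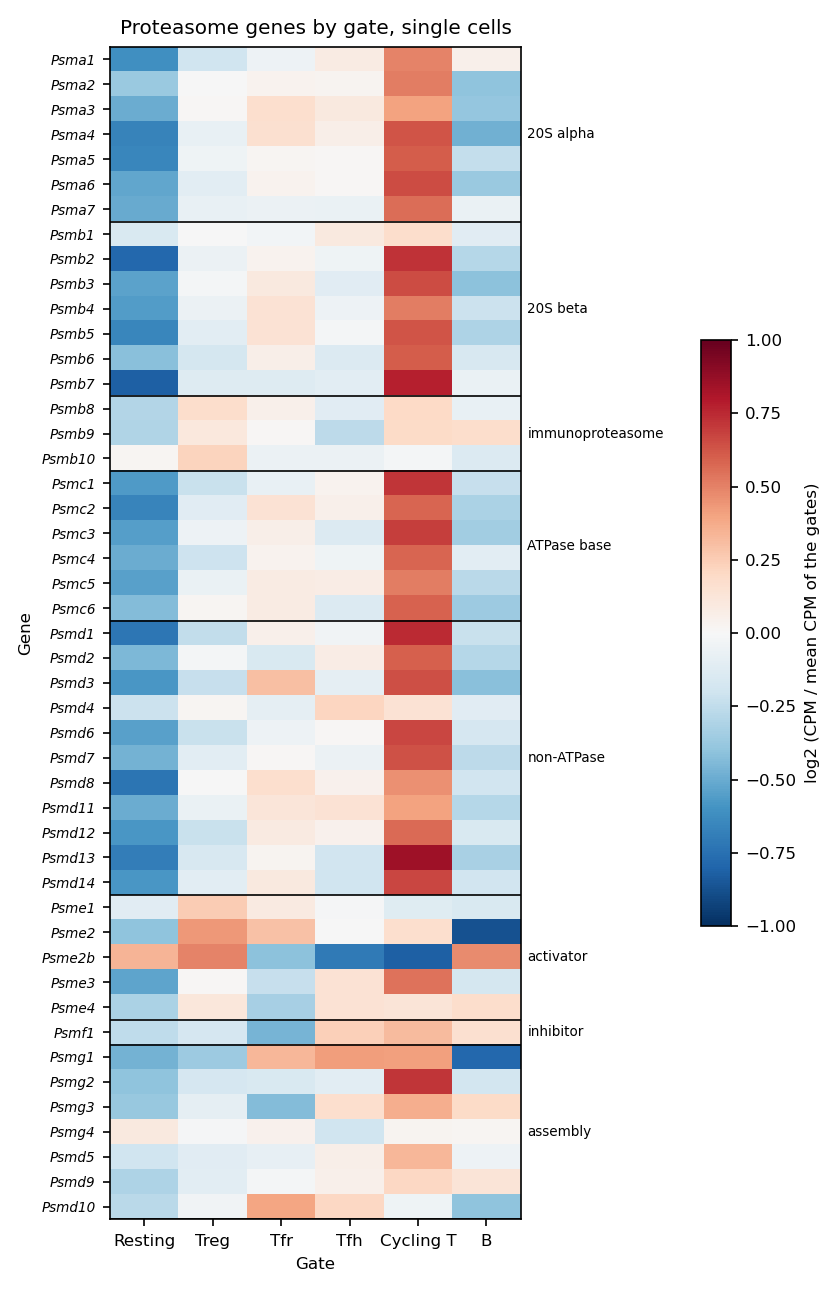
Level in each gate of the 47 proteasome genes other than Psma8, Psmb11 and Psmc3ip, as log2 of its CPM over the mean CPM of the 6 gates. The constitutive genes are highest in the cycling T column for 30 of 31 and lowest in the resting column for 30 of 31, while Psmb10, Psme1 and Psme2 are highest in Treg.

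The total and the depth of cells entered these ratios. Ribosomal protein genes took 41.3% of UMIs in resting cells and 27.1% to 32.1% in the other gates, so the other genes of resting cells share a smaller part of the total. With mitochondrial and ribosomal protein genes left out of the total, the median of all genes for cycling against resting cells moved from 0.36 to −0.10 and the share of higher genes among those past 1.5-fold from 74.2% to 42.9%. The constitutive sum was then 1.62-fold higher, with 26 of 31 genes at least 1.5-fold higher, where 20.9% of all genes were higher and 27.9% lower by that size. Among cells of 6000 to 8000 UMIs, the constitutive sum was 6621 CPM (6378 to 6870) in 59 cycling cells. In 787 resting cells of that depth it was 3496 CPM (3446 to 3546). These sums use the total of all UMIs, and the part of depth in the ratios was not tested. Within the cycling gate the constitutive sum was 7944 CPM (7902 to 7985) in cells of at least 15000 UMIs.

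**Figure D4:**
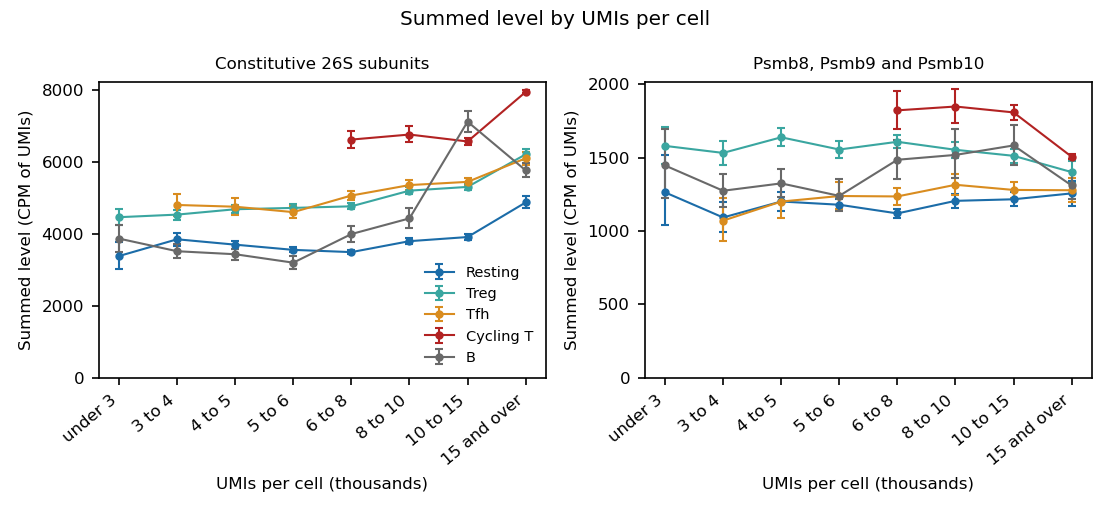
Summed CPM of constitutive and immunoproteasome genes by UMIs per cell within gates, with exact Poisson 95% intervals. Constitutive levels in resting cells run from 3387 CPM under 3000 UMIs to 4875 CPM at 15000 UMIs and more, and cycling T cells lie above resting, Treg and Tfh cells in each bin they fill, while B cells of 10000 to 15000 UMIs, at 7118 CPM, lie above the cycling T cells there, at 6568 CPM.

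Treg cells had 1.35-fold (1.34 to 1.37) the constitutive RNA of resting cells. All 31 genes had a log2 ratio above 0, as did 82.3% of all genes, 5 were at least 1.5-fold higher, against 17.9% of 5331 genes, and none was as far lower, against 2.29%. The median was 0.45, beside 0.27 over all genes. Past this size were the lid subunit Psmd8 at 199 against 120 CPM, a ratio of 1.66 (1.56 to 1.76), Psmb2 at 1.65 (1.55 to 1.76), Psmb7 at 1.61 (1.47 to 1.76) and the alpha subunit Psma5 at 1.53 (1.43 to 1.64), with Psma4 as the fifth at 224 against 148 CPM. The share past 1.5-fold was close to that of all genes, and without mitochondrial and ribosomal genes in the total the sum was 1.11-fold higher with no gene past 1.5-fold. With gates at 2 UMIs of each marker the sum was 1.45-fold higher with 14 genes past it, and as means over cells 3 genes were. Under the total without mitochondrial and ribosomal genes, 8.88% of all genes were higher and 6.75% lower by 1.5-fold. With gates at 2 UMIs and as means over cells the shares of all genes were not counted.

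The member farthest above resting cells in Treg was Psme2, at 482 against 270 CPM, a ratio of 1.78 (1.71 to 1.85), and Psme1 stood at 581 against 449 CPM, a ratio of 1.29 (1.25 to 1.34). Both PA28 genes had their highest level of all gates in Treg. Psmb8 stood at 994 against 720 CPM, 1.38-fold (1.35 to 1.42), Psmb9 at 339 against 257 CPM, 1.32-fold (1.26 to 1.38), and Psmb10 at 223 against 194 CPM, 1.15-fold (1.10 to 1.21). Of the constitutive partners, Psmb5 was at 1.46 (1.38 to 1.54) and Psmb6 at 1.18 (1.11 to 1.26). At the low end were the assembly factors Psmg4 at 0.927 (0.850 to 1.01), Psmd5 at 1.06 (0.896 to 1.26) and Psmg1 at 1.08 (0.938 to 1.24), the inhibitor Psmf1 at 1.06 (0.896 to 1.25), and Psmb1 at 1.11 (1.07 to 1.15). Of 23 pathway genes 2 were at least 1.5-fold higher, against 17.9% of all genes, Pomp at 1.78 and the unfoldase Vcp at 1.67, and Nfe2l2 was lower at 0.568. In the MHC class I list 3 of 8 were higher, Tap1 at 1.74, Tap2 at 1.63 and B2m at 1.55.

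Tfh cells had 1.43-fold (1.41 to 1.45) the constitutive RNA of resting cells but a similar level of immunoproteasome RNA, 1.08-fold in sum (1.05 to 1.11). Of 31 constitutive genes 14 were at least 1.5-fold higher, against 24.9% of 5395 genes, none was as far lower, against 3.84%, and the median was 0.53, beside 0.34. Highest were Psmd8 at 206 against 120 CPM, a ratio of 1.72 (1.59 to 1.85), Psmb2 at 1.67 (1.54 to 1.80), Psma4 at 1.66 (1.55 to 1.78) and the ATPase Psmc2 at 1.64 (1.5 to 1.80). The assembly factor Psmg1, a chaperone of the alpha ring, was higher still at 50.9 against 27.5 CPM, a ratio of 1.85 (1.59 to 2.15). Psmb5 and Psmb7 were past 1.5-fold at 1.55 (1.45 to 1.66) and 1.64 (1.47 to 1.83).

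Psmb8 in Tfh cells was at 814 CPM, 1.13-fold (1.09 to 1.17) the resting level, Psmb9 at 262 CPM, 1.02-fold (0.963 to 1.08), and Psmb10 at 183 CPM, 0.945-fold (0.880 to 1.01). These, with Psme1 at 1.08 (1.03 to 1.12), Psmg4 at 0.813 (0.720 to 0.915) and Psme2b at 0.484 (0.368 to 0.629), were the lowest members of the comparison. Of 23 pathway genes 8 were at least 1.5-fold higher, against 24.9% of all genes, and none as far lower, led by Pomp at 1.86 (1.76 to 1.97), the ubiquitin-activating enzyme Uba1 at 1.76 (1.59 to 1.95) and Vcp at 1.72 (1.6 to 1.86). With mitochondrial and ribosomal genes left out of the total the constitutive sum stood at 1.16 with 0 of 31 genes past 1.5-fold, and under 5% mitochondrial UMIs at 1.56 with 22 genes. Under that total 10.8% of all genes were higher by this size, and their share under the mitochondrial filter was not counted.

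The Tfr gate of 83 cells differed little from Treg. Its constitutive sum was 1.09-fold higher (1.06 to 1.13), 28 of 31 genes had a log2 ratio above 0, as did 57.9% of all genes, and none was past 1.5-fold in either direction, against 7.71% higher and 4.62% lower among 5665 genes. The median was 0.15, beside 0.07 over all genes. The largest constitutive ratio was that of Psmd3, at 84.5 against 58.4 CPM or 1.45 (1.11 to 1.86), followed by the lid subunit Psmd12 at 1.24 (0.993 to 1.53) and Psmd1 at 1.23 (0.878 to 1.67), whose intervals include 1. Psmg1 was the only member past 1.5-fold upwards, at 48.1 against 29.7 CPM, 1.62-fold (1.13 to 2.27) from 37 UMIs, and Psmd10 stood at 1.34 (0.977 to 1.81). Psme2b was past it downwards at 0.533 (0.264 to 0.966), from 11 UMIs.

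All 3 immunoproteasome genes had a Tfr level below Treg, with Psmb10 at 183 against 223 CPM, a ratio of 0.821 (0.689 to 0.973), Psmb8 at 0.921 (0.852 to 0.994) and Psmb9 at 0.937 (0.820 to 1.07). The PA28 genes stood at 0.893 (0.806 to 0.988) for Psme1 and 0.906 (0.809 to 1.01) for Psme2. Psme4, Psmg3 and Psmf1, at 0.737, 0.785 and 0.818, were among the lowest, each with an interval that includes 1. For the genes whose interval includes 1 a difference was not detectable at this depth. None of 24 pathway genes past the filter and none of the 8 MHC class I genes was past 1.5-fold.

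B cells had 1.2-fold (1.18 to 1.22) the constitutive RNA of resting T cells, with 2 of 31 genes at least 1.5-fold higher, against 19.4% of 5322 genes, and none as far lower, against 14.5%. These were Psmb7 at 90.9 against 54.0 CPM, a ratio of 1.68 (1.46 to 1.94), and the alpha subunit Psma1 at 181 against 114 CPM, a ratio of 1.59 (1.44 to 1.75). Psmd8 and Psmb2 followed at 1.46 (1.32 to 1.61) and 1.41 (1.27 to 1.57), with Psmg3 at 1.48 (1.17 to 1.87). Psme2 was lowest, at 195 against 270 CPM, 1.39-fold lower (1.27 to 1.52), its lowest level of all gates. Psmg1 at 0.808 (0.612 to 1.05), Psmb10 at 0.895 (0.813 to 0.984), Psmd10 at 0.910 (0.731 to 1.12) and Psmg4 at 0.949 (0.815 to 1.10) were also at the low end. Psmb9 stood at 357 against 257 CPM, a ratio of 1.39 (1.30 to 1.49). The median of the 31 genes was 0.33, beside 0.07 over all genes. Of 24 pathway genes 3 were at least 1.5-fold higher, Zfand5, Ubqln1 and Txnl1 at 1.90, 1.81 and 1.62, and Ngly1, the deglycosylase that activates Nfe2l1, was 2.15-fold lower (1.65 to 2.86). In the MHC class I list Nlrc5 and Erap1 were lower, at 0.554 and 0.561.

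The B cell difference depended on which cells were kept. Without cells that had at least 5 UMIs of the cycling genes, an alternative added after the values were seen, 434 of the 478 cells remained, the constitutive ratio was 0.984 and no gene was past 1.5-fold. Among cells of 4000 to 10000 UMIs the ratio was 1.01. Under 5% mitochondrial UMIs it was 1.45, with 17 of 31 genes past 1.5-fold. The share of all genes past that size was not counted under this filter.

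Within each catalytic pair, the share of UMIs from the inducible gene was lowest in cycling T cells. Over all pairs it was 78.2% (77.6 to 78.7, Clopper-Pearson interval) in resting cells, 77.6% (77.1 to 78.1) in Treg, 76.2% (75 to 77.4) in B, 73.3% (71.0 to 75.5) in Tfr, 72.9% (72.0 to 73.7) in Tfh and 66.8% (66.4 to 67.2) in cycling T cells. The total of UMIs cancels in this share, so transcripts of ribosomal protein genes do not enter it. The intervals of neighbours in this order overlapped, except those of Tfh and cycling T cells.

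The pairs did not move alike. Psmb10 held 78.2% (76.8 to 79.5) of its pair in resting cells, 72.0% (70.6 to 73.3) in Treg, 67.4% (65 to 69.7) in Tfh, 65.6% (62.1 to 68.9) in B and 53.6% (52.5 to 54.7) in cycling T cells. Psmb8 held 83.4% (82.8 to 84.1) in resting cells, 78.6% (77.5 to 79.6) in Tfh and 74.4% (73.9 to 74.9) in cycling T cells. Psmb9 held 66.5% (65.2 to 67.7) in resting cells, 69.7% (67.3 to 72.1) in B and 57.7% (56.8 to 58.5) in cycling T cells. The inducible gene held over 50% of the UMIs in every pair and gate.

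**Figure D5:**
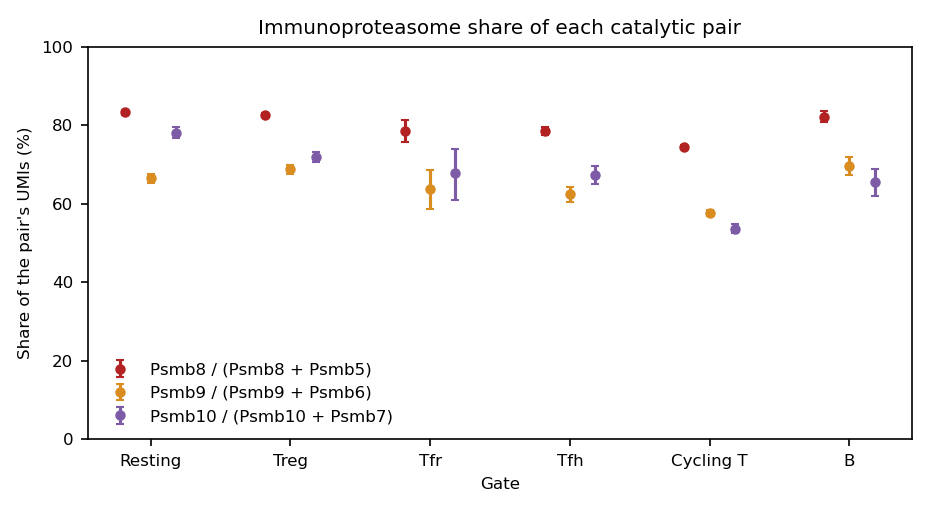
Share of the UMIs of each catalytic pair that came from the inducible gene, in percent, by gate, with Clopper-Pearson 95% intervals. Cycling T cells have the lowest share in all 3 pairs, down to 53.6% for Psmb10.

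Depth moved with this share. Among cells of 4000 to 10000 UMIs it was 73.6% in cycling T cells, 73.7% in Tfh, 76.6% in Tfr, 78.7% in Treg, 78.4% in resting and 81.1% in B cells, so cycling T and Tfh cells lay close together at that depth. The cycling gate keeps 149 of its 1067 cells there. In B cells without dividing cells the share was 80.1%.

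Dividing cells with and without Foxp3 had like constitutive levels. Cycling T cells with a Foxp3 UMI (470 cells) had a constitutive sum of 7650 CPM (7595 to 7706), and those without (597 cells) 7715 CPM (7666 to 7765), with overlapping intervals. Their immunoproteasome sums were 1631 CPM (1606 to 1657) and 1501 CPM (1479 to 1523), the former being higher beyond counting error. Tfh cells with a Sostdc1 UMI (121 cells) had a constitutive sum of 5412 CPM (5271 to 5556) and an inducible share of 70.5% (68.3 to 72.6), beside 5244 CPM (5180 to 5309) and 73.4% (72.4 to 74.3) in the 613 Tfh cells without. The intervals of the sums overlapped and those of the shares overlapped narrowly, and absence of a UMI does not show absence of expression.

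A direct comparison of Treg with Tfh was added after the values were seen. The constitutive sum in Treg was 0.949 of that in Tfh (0.936 to 0.962) with 26 of 31 genes below 0 on the log2 scale, as were 59.4% of all genes. The constitutive median was −0.09, near the −0.07 of all genes. All 3 immunoproteasome genes had a higher level in Treg, 1.24-fold in sum (1.2 to 1.27). None of these 34 genes was past 1.5-fold, against 7.53% of genes higher and 7.62% lower.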

How the data were processed

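RNA of mouse T cells was measured in bulk (1 Tfr library labelled KO, 1 labelled WT) and in single cells (1 library). Per the labels' protocols, bulk libraries came from Trizol RNA with the NEBNext Ultra kit and the single-cell library from version 2 of the 10x Genomics 3′ kit. The deposited bulk table gives whole-number counts per gene. Its deposited normalized columns are CPM, the authors' counts scaled to the library total, and the CPM used here were recomputed from counts and totals. The deposited single-cell matrix gives UMI counts, whose header names Cell Ranger 3.1.0 (per the file headers), while the submitters' processing notes name Cell Ranger 2.1.0, TopHat and Cufflinks and the builds mm9 and mm10 without roles. The counter and the strand setting were not given in the sources used here. Among bulk columns, that taken for the WT library has a number that the sample title lacks, and no other WT Tfr RNA sample is labelled. The other 8 samples of the 11 were not analysed here, nor were deposited p-values used.

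Members, lists and sizes were chosen with earlier results of these data known. With 1 library per group, genes were counted by a size of 1.5-fold on log2(CPM + 1), among genes with at least 5 CPM in either bulk library or 20 CPM in either gate. Named with values were the catalytic genes, Psme1, Psme2, members past that size in bulk, the 5 highest and 5 lowest members of each gate comparison, up to 6 genes of the pathway list by size, and genes that bound a range or interval. Some genes counted in these lists and gates are not reported here by name. Ratios have exact conditional binomial, sums exact Poisson and shares Clopper-Pearson 95% intervals, for counting error only. Where a symbol had several lines in the bulk table (13 symbols), the most abundant line was used. No doublet caller was run: cells with at least 3 UMIs of B cell genes together with Cd3 UMIs were left out of the gates, and the 10% of cells with the most UMIs per gate were removed as an alternative. All 50 gene IDs matched a reference list of gene names by ID and symbol. Motifs were searched on both strands of the 250 bases before each start. Alternatives were TMM scaling, other totals, pseudocounts, filters, gate limits, cell depth and averaging over cells. The counting was tested on simulated data. Tools were Python 3.11.15, pandas 2.3.3, scipy 1.17.1 and edgeR 4.0.16.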

Additional observations from a re-analysis of the deposited data

How the results depend on the processing

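No paired analysis was possible because each group has 1 library. Depth limits the Tfr gate (83 cells) most, and leaving out a library would leave no comparison.

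In the bulk data, TMM scaling gave 10 constitutive genes past 1.5-fold, all higher, against 15.4% of all genes higher and 14.8% lower. It gave a constitutive ratio of 1.39 and an immunoproteasome ratio of 0.628. A total without mitochondrial and the 100 most abundant genes gave a constitutive ratio of 1.27. At 2-fold, 0 constitutive genes were past the size, against 265 of 10194 genes higher and 930 lower.

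Constitutive ratios in single cells moved as follows. Without mitochondrial and ribosomal protein genes in the total they were, against resting cells, 1.62 for cycling T and 1.11 for Treg. Tfh and B stood at 1.16 and 1.03. For Treg, Tfh and B 0 genes were then past 1.5-fold, against 8.88%, 10.8% and 13.7% of all genes higher by that size. In cells of 4000 to 10000 UMIs the constitutive ratios were 1.82 for cycling T, 1.40 for Tfh and 1.01 for B, with 0 genes for B. Without the 10% of cells with the most UMIs they were 2.02 for cycling T and 1.03 for B, with 0 genes for B, and 1 gene was past the size for Tfr against Treg. With gates at 2 UMIs they were 2.12 for cycling T, 1.45 for Treg with 14 genes, 1.54 for Tfh, 1.23 for B and 1.05 for Tfr against Treg, which then rested on 9 Tfr cells. As means over cells they were 1.98 for cycling T, 1.32 for Treg with 3 genes, 1.40 for Tfh and 1.07 for B with 0 genes. Under 5% mitochondrial UMIs they were 1.40 for Treg, 1.56 for Tfh with 22 genes and 1.45 for B with 17 genes, and 1 gene was past the size for Tfr against Treg. A pseudocount of 10 CPM gave 3 genes for Treg and 8 for Tfh. A size of 2-fold gave 0 genes for Treg, Tfh and B. Of all genes in these comparisons, 386 of 5331, 458 of 5395 and 628 of 5322 were that far higher. As far lower were 33, 81 and 428. Without dividing cells, the alternative added after seeing the data, the B cell ratio turned to 0.984 with 0 genes and the inducible share was 80.1%. The causes of these shifts were not tested. Shares of all genes past 1.5-fold were not counted for the changed gates, cell filters, averages and pseudocounts.

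The inducible share in cells of 4000 to 10000 UMIs was 78.7% in Treg, 76.6% in Tfr, 73.6% in cycling T and 81.1% in B cells. Without the 10% of cells with the most UMIs it was 78.6% in Treg, 69.1% in cycling T and 81.1% in B cells. The count for cycling T against resting cells stayed within 1.5 times under all 10 alternatives run for it.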
